A study of Mus musculus with 16 samples.

Results

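The comparison set 3 App knock-in libraries (mice 537, 538 and 545) against 4 wild-type libraries (mice 4, 5, 11 and 12), all from the control diet, which are 7 of the 16 libraries of the series. All mice were male, were fed control chow (fat supplying 12.5% of energy, energy density 345.0 kcal/100 g) for 6 months, starting when they were 2 months old, and were sampled at 8 months. App knock-in mice were homozygous App NL-G-F/NL-G-F animals, kept as an inbred line, whose own App gene carries a humanised amyloid-beta sequence with the Swedish, Beyreuther/Iberian and Arctic mutations. Wild-type mice were C57BL/6J Jcl animals bought from a breeder, so genotype and place of breeding cannot be told apart here. Each library held polyadenylated RNA of oligodendrocyte lineage cells taken from brain by magnetic sorting, and the antibody of the sort is not given in the sources used here. A further App knock-in library on this diet (mouse 553) was left out because 39.4% of its counts were mitochondrially encoded and only 18928 genes were detected. With it, 1826 genes were called in place of 3900 (called as defined below) and 77.5% of the calls were higher in App knock-in, and 1734 of the 1826 were among the 3900.

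Oligodendrocytes wrap axons in myelin, a membrane rich in cholesterol, galactolipids and very long chain fatty acids, and keep making these lipids in the adult brain. The App gene encodes the amyloid precursor protein, which secretases cut to release amyloid-beta, and the NL-G-F alleles raise the release of aggregating forms without a foreign promoter. Microglia, the resident macrophages of the brain, gather around amyloid plaques and switch on a set of lysosomal, lipid-handling and phagocytic genes through the receptor Trem2 and its adaptor Tyrobp.

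Library totals ran from 69772745 to 217925484 counts, and 27164 to 30617 genes were detected per library. Mitochondrially encoded genes took 3.7% to 4.62% of counts in 6 libraries and 1.22% in wild type 11. Levels are given as CPM, each gene's share of the library's counts per 1e6 counts, after scaling between libraries. A fold change is App knock-in over wild type on the log2 scale, with a standard error (SE). A gene was called where edgeR's quasi-likelihood test gave a Benjamini-Hochberg adjusted p below 0.05 over all genes tested. The SE was not fitted directly but is the absolute log2 fold change divided by the square root of that test's F statistic. It is therefore approximate, above all where wild-type levels are near 0. The labels number the mice but do not describe separate rounds of sorting, so the p-values measure the spread between samples, which may be technical. That spread was estimated over 15 libraries, the 8 high-fat ones included.

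Of 22322 genes tested, 3900 (17.5%) were called, with 2288 (10.2%) higher and 1612 (7.22%) lower in App knock-in. The shares 10.2% and 7.22% are the background for the counts of called list members below, and some small counts lie near them. Large changes ran upward: 1240 genes rose and 246 fell by at least 2-fold, 155 rose and 17 fell by at least 8-fold, and 50 rose and 5 fell by at least 32-fold. All 3 App knock-in libraries lay above all 4 wild-type libraries for 2963 genes (13.3%) and below them for 3034 (13.6%). The median log2 fold change over all genes was -0.05. When libraries were instead scaled to equal levels of 30 myelin genes that median became 0.24, and 2978 genes were called higher and 79 lower, so that 97.4% of calls were higher against 58.7% with the main scaling. Scaling to library totals alone gave 2002 higher and 2542 lower, 44.1% of calls being higher. With the 7 control-diet libraries fitted alone, 2528 genes were called, 1833 higher and 695 lower. Leaving out App knock-in 545 gave 2456 calls and 538 gave 2574. The lower calls were the less stable: 589 without App knock-in 545, 825 without 538, and 862, 865 and 1070 without wild type 11, 12 and 5.

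**Figure D1:**
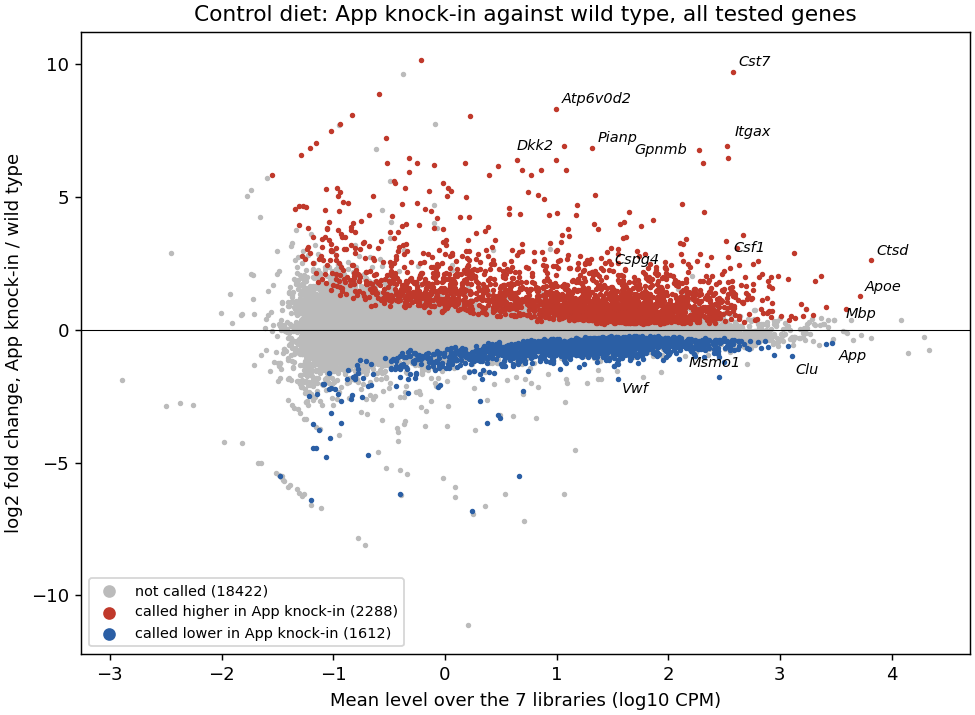
Mean level of each tested gene over the 7 libraries (x axis, log10 CPM) against its log2 fold change, App knock-in over wild type (y axis). Red points are the 2288 genes called higher, blue the 1612 called lower and grey the rest (6 tested genes at 0 in all 7 libraries are not drawn); genes called with changes of 8-fold or more lie mostly above 0.

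Genes of plaque-associated microglia were among those with the highest changes. The highest log2 fold change of any tested gene, called or not, was 10.1, outside the list of 24 plaque-associated genes used below. Cst7 encodes cystatin F, an inhibitor of lysosomal cathepsins, and lies at chr2:150570415-150578944 (GRCm38, ENSMUSG00000068129). Its level was 1.57, 1.04, 0.383 and 1.15 CPM in wild type 4, 5, 11 and 12 and 844, 876 and 922 CPM in App knock-in 537, 538 and 545. The 3 App knock-in libraries were close to each other and far above every wild-type library, a log2 fold change of 9.72 ± 0.59 (SE) with an edgeR adjusted p of 8.6e-08. Itgax (chr7:128129547-128150657, ENSMUSG00000030789) encodes CD11c, an integrin chain of dendritic cells and reactive microglia. It stood at 9.71, 4.87, 5.57 and 5.89 CPM in wild type and 933, 690.2 and 726 CPM in App knock-in, with no overlap and a log2 fold change of 6.91 ± 0.28 (SE) (edgeR adjusted p = 1.8e-09). Spp1, the secreted phosphoprotein osteopontin, went from 12.2, 8, 4.42 and 11.1 CPM to 969, 671 and 718 CPM (log2 fold change 6.46). Gpnmb, a lysosomal glycoprotein of lipid-laden macrophages, measured 6.25, 3.76, 3.02 and 2.87 CPM in wild type and 506, 453 and 350.5 CPM in App knock-in. Lpl, the lipoprotein lipase that frees fatty acids from triglyceride, measured 10.1, 4.99, 4.27 and 4.66 CPM and 490.1, 474 and 444 CPM. For these 5 genes the lowest App knock-in library was far above the highest wild-type library.

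The promoters of 6 genes that rose or fell are printed because they come from groups of genes described here that moved together: Itgax and Spp1 (plaque-associated microglia), Ctsd (lysosomal protease), Cxcl10 and B2m (interferon response and class I antigen presentation) and Msmo1 (cholesterol synthesis, lower). Each run is the 250 bases before a RefSeq start (GRCm38.p6), 5′ to 3′ on the strand of the gene. Capitals mark letters found in a search of both strands for the AP-1 motif TGANTCA, the PU.1 core GAGGAAGT, the interferon response letters GAAANNGAA, the lysosomal CLEAR core TCACGTG and the CCAAT box.
Itgax, chr7:128129300-128129549, plus strand: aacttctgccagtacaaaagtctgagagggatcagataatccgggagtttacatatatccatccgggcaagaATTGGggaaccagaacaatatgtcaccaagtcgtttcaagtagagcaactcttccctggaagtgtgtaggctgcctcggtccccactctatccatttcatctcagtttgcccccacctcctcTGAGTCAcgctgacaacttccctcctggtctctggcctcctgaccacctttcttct
Spp1, chr5:104434861-104435110, plus strand: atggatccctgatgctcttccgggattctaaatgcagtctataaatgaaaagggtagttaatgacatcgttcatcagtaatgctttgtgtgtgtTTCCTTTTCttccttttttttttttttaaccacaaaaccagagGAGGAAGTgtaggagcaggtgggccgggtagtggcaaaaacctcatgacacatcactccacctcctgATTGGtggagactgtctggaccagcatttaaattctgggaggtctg
Ctsd, chr7:142387828-142388077, minus strand: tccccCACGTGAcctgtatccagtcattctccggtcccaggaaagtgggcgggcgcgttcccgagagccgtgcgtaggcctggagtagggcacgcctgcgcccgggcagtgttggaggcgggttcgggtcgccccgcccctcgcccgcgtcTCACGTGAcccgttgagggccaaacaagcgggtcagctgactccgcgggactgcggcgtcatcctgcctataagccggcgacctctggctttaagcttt
Cxcl10, chr5:92348890-92349139, minus strand: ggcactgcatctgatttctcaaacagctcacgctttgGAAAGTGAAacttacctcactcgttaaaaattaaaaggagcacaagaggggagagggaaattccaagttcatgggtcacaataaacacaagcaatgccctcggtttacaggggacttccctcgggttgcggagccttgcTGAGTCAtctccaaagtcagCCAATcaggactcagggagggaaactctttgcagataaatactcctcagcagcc
B2m, chr2:122147437-122147686, plus strand: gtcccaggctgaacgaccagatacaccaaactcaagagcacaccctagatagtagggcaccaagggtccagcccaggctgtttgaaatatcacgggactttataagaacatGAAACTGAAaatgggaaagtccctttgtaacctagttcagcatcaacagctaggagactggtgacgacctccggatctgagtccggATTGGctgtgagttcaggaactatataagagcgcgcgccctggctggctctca
Msmo1, chr8:64733579-64733828, minus strand: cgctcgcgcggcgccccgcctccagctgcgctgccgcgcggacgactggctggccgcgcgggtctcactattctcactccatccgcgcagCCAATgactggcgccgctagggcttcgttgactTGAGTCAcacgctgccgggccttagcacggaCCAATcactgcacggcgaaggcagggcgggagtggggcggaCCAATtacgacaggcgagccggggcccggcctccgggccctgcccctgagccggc
Itgax holds an AP-1 match starting 56 bases before the start and Spp1, which has another listed start that is not shown, holds a PU.1 match at 113. Ctsd holds the CLEAR core at 245 and again at 99, where the palindrome matches on both strands and so overlaps itself. Cxcl10 and B2m hold interferon motifs at 213 and 139, and Msmo1 holds CCAAT boxes at 160, 96 and 55.

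Promoters were found for 13712 of the tested genes (17386 promoters), and each share below is a description of letters in these 250 bases. The PU.1 core was in 2.53% of all promoters, 4.21% of those of genes called higher and 1.42% of those of genes called lower. The interferon letters were in 6.45% of all promoters and in 9 of 20 promoters (45.0%) of the tested interferon-stimulated genes. AP-1 letters were in 4.98% of all promoters and in 4 of 24 (16.7%) for the plaque-associated microglia list. That list held the interferon letters in 4 of 24 (16.7%) too, and the PU.1 core in 1 of 24 (4.17%). AP-1 letters were also in 4 of 20 (20.0%) for interferon-stimulated genes, but in 0 of 16 for class I antigen presentation and 0 of 14 for cathepsins. Only part of the pairs of list and motif is given here. The CLEAR core was in 4.25% of all promoters and in 3 of 14 (21.4%) for the cathepsin list. CCAAT boxes were in 34.7% of all promoters, in 13 of 16 (81.2%) for class I antigen presentation and in 17 of 24 (70.8%) for cholesterol synthesis.

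Of 24 plaque-associated microglia genes tested, 23 rose and none fell, with a median log2 fold change of 2.74. Dkk2, a secreted regulator of Wnt signalling, was at 0.255, 0.139, 0.33 and 0.146 CPM in wild type and 31.8, 23.2 and 25.8 CPM in App knock-in. Pianp, a single-pass membrane protein that binds the inhibitory receptor PILR-alpha, was at 0.407, 0.487, 0.225 and 0.564 CPM and 51.8, 43.6 and 48.8 CPM. Both were under 1 CPM in every wild-type library and above 20 CPM in every App knock-in library. Atp6v0d2, a subunit of the proton pump that acidifies lysosomes, was at 0.134, 0.0596, 0.0526 and 0 CPM and 27, 20 and 22.5 CPM, so its fitted log2 fold change of 8.32 rests on at most 30 reads in any wild-type library. Il4i1, a secreted amino acid oxidase, Lgi2, a secreted leucine-rich repeat protein, and Kcnk9, a potassium leak channel, had log2 fold changes of 6.40, 6.38 and 6.17. These rest on at most 33, 55 and 22 reads in any wild-type library. Igf1, a growth factor for oligodendrocytes, rose from 11.2, 9.14, 5.15 and 10.4 CPM to 157, 165 and 157 CPM (edgeR adjusted p = 3.3e-08).

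**Figure D2:**
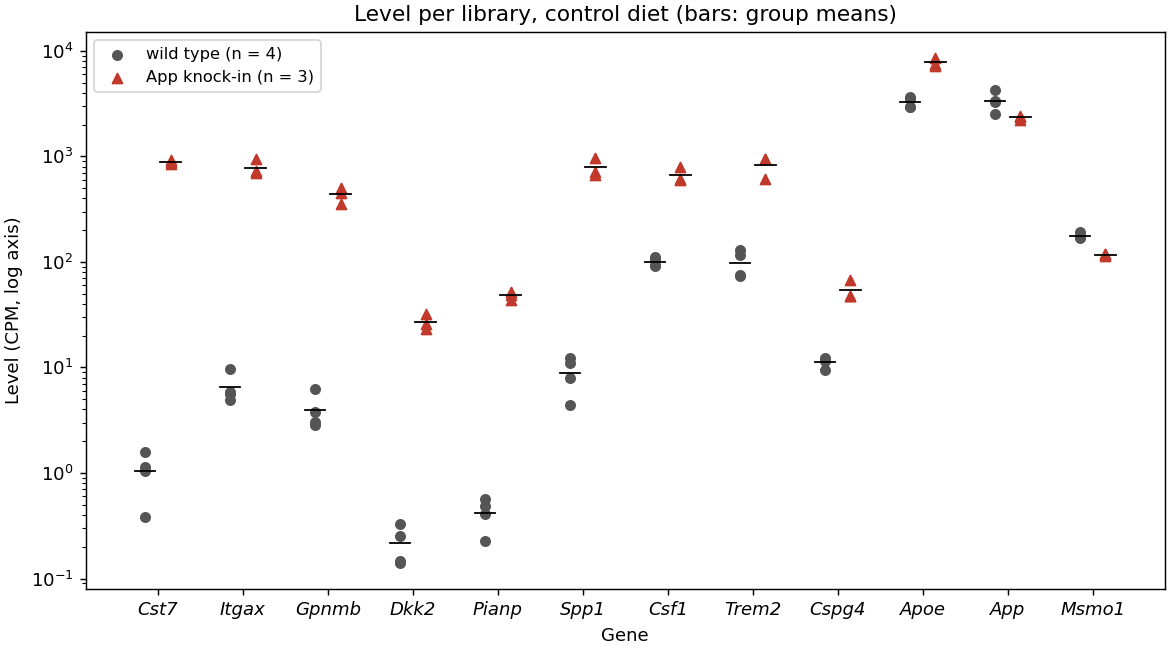
Level of 12 genes in each library (CPM, log axis), wild type as grey circles (n = 4) and App knock-in as red triangles (n = 3), with bars at the group means. Cst7, Itgax, Gpnmb, Dkk2, Pianp and Spp1 are separated by 10-fold or more between the nearest libraries, while App and Msmo1 are separated by a small gap with App knock-in below.

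Colony-stimulating factors keep microglia alive through the receptor Csf1r. Csf1, a ligand of that receptor, was at 91.4, 106, 93.2 and 110.1 CPM in wild type and 788, 605 and 595 CPM in App knock-in, a log2 fold change of 2.72 ± 0.14 (SE) (edgeR adjusted p = 8.5e-09). The receptor gene Csf1r was at 1427, 963, 992 and 978 CPM and 2211, 2112 and 2141 CPM, and wild type 4 was the highest wild-type library. Csf2ra and Csf3r, receptor chains for other colony-stimulating factors, rose with log2 fold changes of 1.74 and 1.81. In all, 5 of 6 genes of this family rose and none fell. The remaining gene had a log2 fold change of -0.62, lower at an unadjusted edgeR p below 0.05 but not called.

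Trem2, the lipid-sensing receptor, was at 116, 72.8, 128 and 74.4 CPM in wild type and 611, 938 and 943 CPM in App knock-in (log2 fold change 3.09 ± 0.28 (SE), edgeR adjusted p = 3.1e-06). Its adaptor Tyrobp was at 115, 73.1, 66.9 and 73.5 CPM and 637, 1127 and 1165 CPM. App knock-in 537 was the lowest of its group for both and still above every wild-type library. Of 14 genes of this signalling pathway 12 rose and none fell. Homeostatic microglia markers rose less: 13 of 15 were higher, with a median log2 fold change of 1.12. Among these C1qa, a chain of complement C1q, had a log2 fold change of 2.04, and Fcrls, a microglial Fc receptor-like gene, 2.00. No test was made between the lists. Of 8 border macrophage markers none was called in edgeR (1 higher at an unadjusted p below 0.05) or DESeq2, and limma-voom called 1 higher. Mrc1, their mannose receptor, was at 296, 188, 163 and 199.5 CPM in wild type and 354, 196 and 192 CPM in App knock-in.

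Because these are libraries of sorted cells in bulk, fewer cells of a type and less RNA per cell (or more of either) cannot be told apart. The summed level of 8 microglia markers ran from 3208 to 5121 CPM in wild type and from 9003 to 10555 CPM in App knock-in, and 6 of the 8 were called higher. The summed level of 10 oligodendrocyte markers ran from 32553 to 44532 CPM and from 27549 to 37038 CPM, with none called. Neuronal markers summed to between 3.72 and 6.46 CPM in all 7 libraries, with Rbfox3, Slc17a7 and Gad1 under 1 CPM on average. The libraries of both groups held the defining genes of oligodendrocytes together with microglial RNA. The part of the microglial markers in the other results was not tested.

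**Figure D3:**
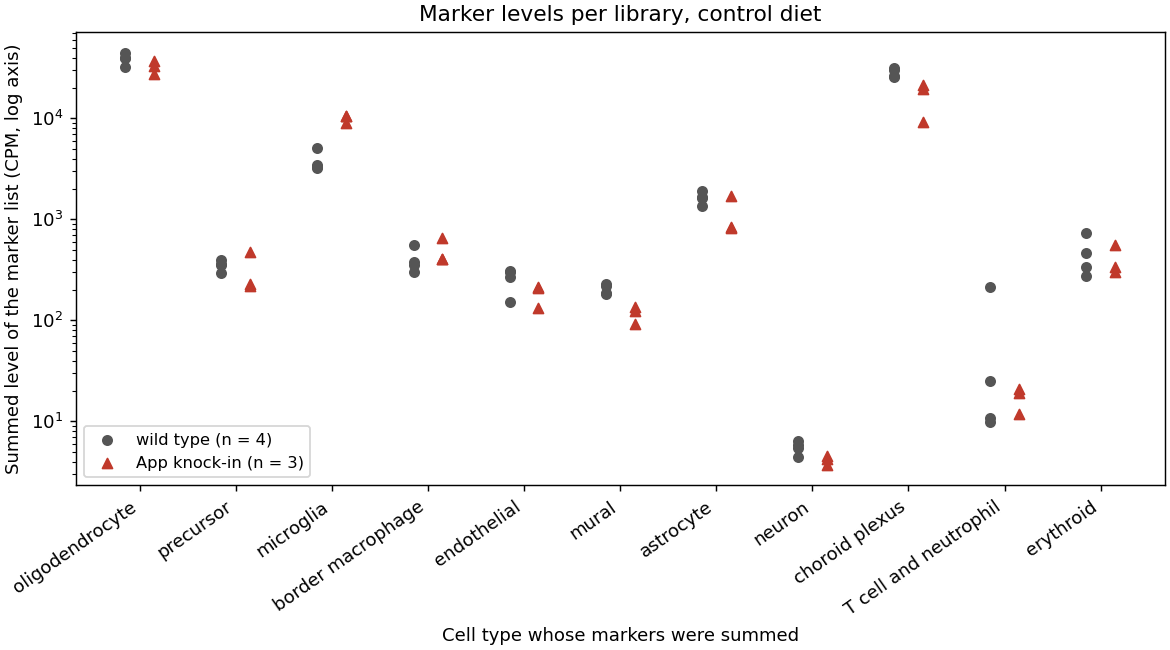
Summed level of fixed marker genes for 11 cell types in each library (CPM, log axis), wild type as grey circles (n = 4) and App knock-in as red triangles (n = 3). Microglia markers are higher in all App knock-in libraries (9003 to 10555 CPM against 3208 to 5121 CPM), and choroid plexus and mural markers are lower in all of them.

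Many markers of vessels and astrocytes were called lower in App knock-in. Of 14 endothelial markers 9 fell, of 10 pericyte and smooth muscle markers 6 fell and 1 rose, and of 15 astrocyte markers 8 fell. The 1 that rose was Cspg4, also counted as a precursor marker. The summed level of 6 endothelial markers overlapped, at 153 to 306 CPM in wild type and 134 to 213 CPM in App knock-in. That of 6 mural markers did not, at 183 to 230 CPM and 92 to 136 CPM. Slco1a4, a transporter of brain capillaries, was at 76.6, 55.5, 94.2 and 83.3 CPM in wild type and 26.1, 39.7 and 43.9 CPM in App knock-in. Tek, the endothelial angiopoietin receptor, had a log2 fold change of -1.25, Tagln, a smooth muscle actin-binding protein, -1.03, and Kcnj8, a pericyte potassium channel, -1.04. The Kcnj8 call was lost without wild type 11 or 12 or App knock-in 537 or 538, and the Tek call without App knock-in 538. Aldh1l1, an astrocytic folate enzyme, was at 91.7, 81.7, 123 and 85.3 CPM and 65.8, 46.6 and 41.7 CPM, and Fgfr3, a growth factor receptor, had a log2 fold change of -0.80, a call lost without App knock-in 538 or 545. For astrocytes App knock-in 537 stood apart, with a summed marker level of 1709 CPM against 824 and 848 CPM in App knock-in 538 and 545 and 1357 to 1905 CPM in wild type. Without App knock-in 545, 1 astrocyte marker was called lower, and without App knock-in 538, 2 endothelial markers and 1 mural marker were. Scaled to the myelin list, 4 endothelial and no mural or astrocyte genes were called lower.

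Choroid plexus genes were at high levels in every library. Ttr, the transthyretin made by that epithelium, was at 29276, 28027, 23879 and 24810 CPM in wild type and 8142, 19968 and 18211 CPM in App knock-in (log2 fold change -0.78 ± 0.31 (SE), edgeR adjusted p = 0.095), and Kl, the klotho gene, had a log2 fold change of -0.62. The 4 summed markers ran from 25849 to 31281 CPM in wild type and from 9299 to 21355 CPM in App knock-in, without overlap. None of 10 genes of the ependymal and choroid plexus list was called in edgeR, where 7 were lower at an unadjusted p below 0.05. limma-voom called 3 lower, DESeq2 0, and library totals or the 7 libraries fitted alone 2 each. For 8 of 10, all App knock-in libraries lay below all wild-type ones, as they did for 3034 of all 22322 genes (13.6%). Enpp2, which both choroid plexus and oligodendrocytes make, was at 15070, 16282, 23922 and 14735 CPM and 8359, 11390 and 9216 CPM and was not called (edgeR adjusted p = 0.053).

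Lysosomal enzymes rose with the microglial genes. Of 16 cathepsins and cystatins 13 rose and none fell (median log2 fold change 1.64). Some genes are in more than 1 list, as Cst7 is in this list and the plaque-associated list, so the counts are not separate results. Ctsd, the aspartic protease cathepsin D, was at 2425, 1774, 2320 and 1679 CPM in wild type and 12212, 13040 and 12788 CPM in App knock-in (log2 fold change 2.63 ± 0.19 (SE), edgeR adjusted p = 2.8e-07). Ctsb and Ctsz, cysteine cathepsins, had log2 fold changes of 2.03 and 2.60. Among 14 enzymes that break down sphingolipids in lysosomes 9 rose and 1 fell. Gusb, the lysosomal beta-glucuronidase, was at 69.2, 51.9, 56.9 and 52.2 CPM and 344, 346 and 352 CPM, and Hexa, the alpha chain of hexosaminidase, had a log2 fold change of 2.44. Of 18 genes for lysosomal membrane, acidification and the TFEB family, 7 rose and none fell. Grn, the progranulin gene, had a log2 fold change of 2.12, and Cd68, a glycoprotein of macrophage lysosomes, 3.33.

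Most complement and innate receptor genes rose, and fewer of the chemokines did. Complement had 11 of 18 genes higher and 1 lower (6 higher with mouse 553 added), with C3ar1, the C3a receptor, at a log2 fold change of 1.99, Itgb2, the beta chain of complement receptor 3, at 2.19, and C4b at 1.00. Chemokines had 7 of 16 higher and 2 lower, with 6 higher without wild type 5 or 12 or App knock-in 537 or 545 and 11 without wild type 4. Ccl6 was at 40.5, 19.2, 7.51 and 17.2 CPM in wild type and 403, 485 and 485 CPM in App knock-in, Ccl3 had a log2 fold change of 2.76 and Cxcl16 1.80. Toll-like receptor and inflammasome genes had 16 of 20 higher and none lower, Tlr2 with a log2 fold change of 2.85 and the cytokine Tnf with 3.24.

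Class I antigen presentation rose almost throughout, with 17 of 18 genes higher and none lower (median log2 fold change 1.20). B2m, the light chain of every class I molecule, was at 322, 178, 79.9 and 192 CPM in wild type and 785, 1173 and 1297 CPM in App knock-in (log2 fold change 2.49 ± 0.39 (SE), edgeR adjusted p = 4.7e-04). The classical heavy chains H2-D1 and H2-K1 had log2 fold changes of 1.82 and 1.18, though these similar genes may share reads, and Nlrc5, the class I transactivator, 1.40. Among 9 class II genes 6 rose and none fell, Cd74, the invariant chain, with a log2 fold change of 1.14. Interferon-stimulated genes had 18 of 24 higher and none lower, at a lower median of 0.82. Cxcl10, an interferon-induced chemokine, was at 5.55, 2.95, 2.48 and 2.42 CPM and 13.2, 11.3 and 19.4 CPM. With mouse 553 added, 8 class I genes and 11 interferon-stimulated genes were called higher, and without App knock-in 545, 11 interferon-stimulated genes were.

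**Figure D4:**
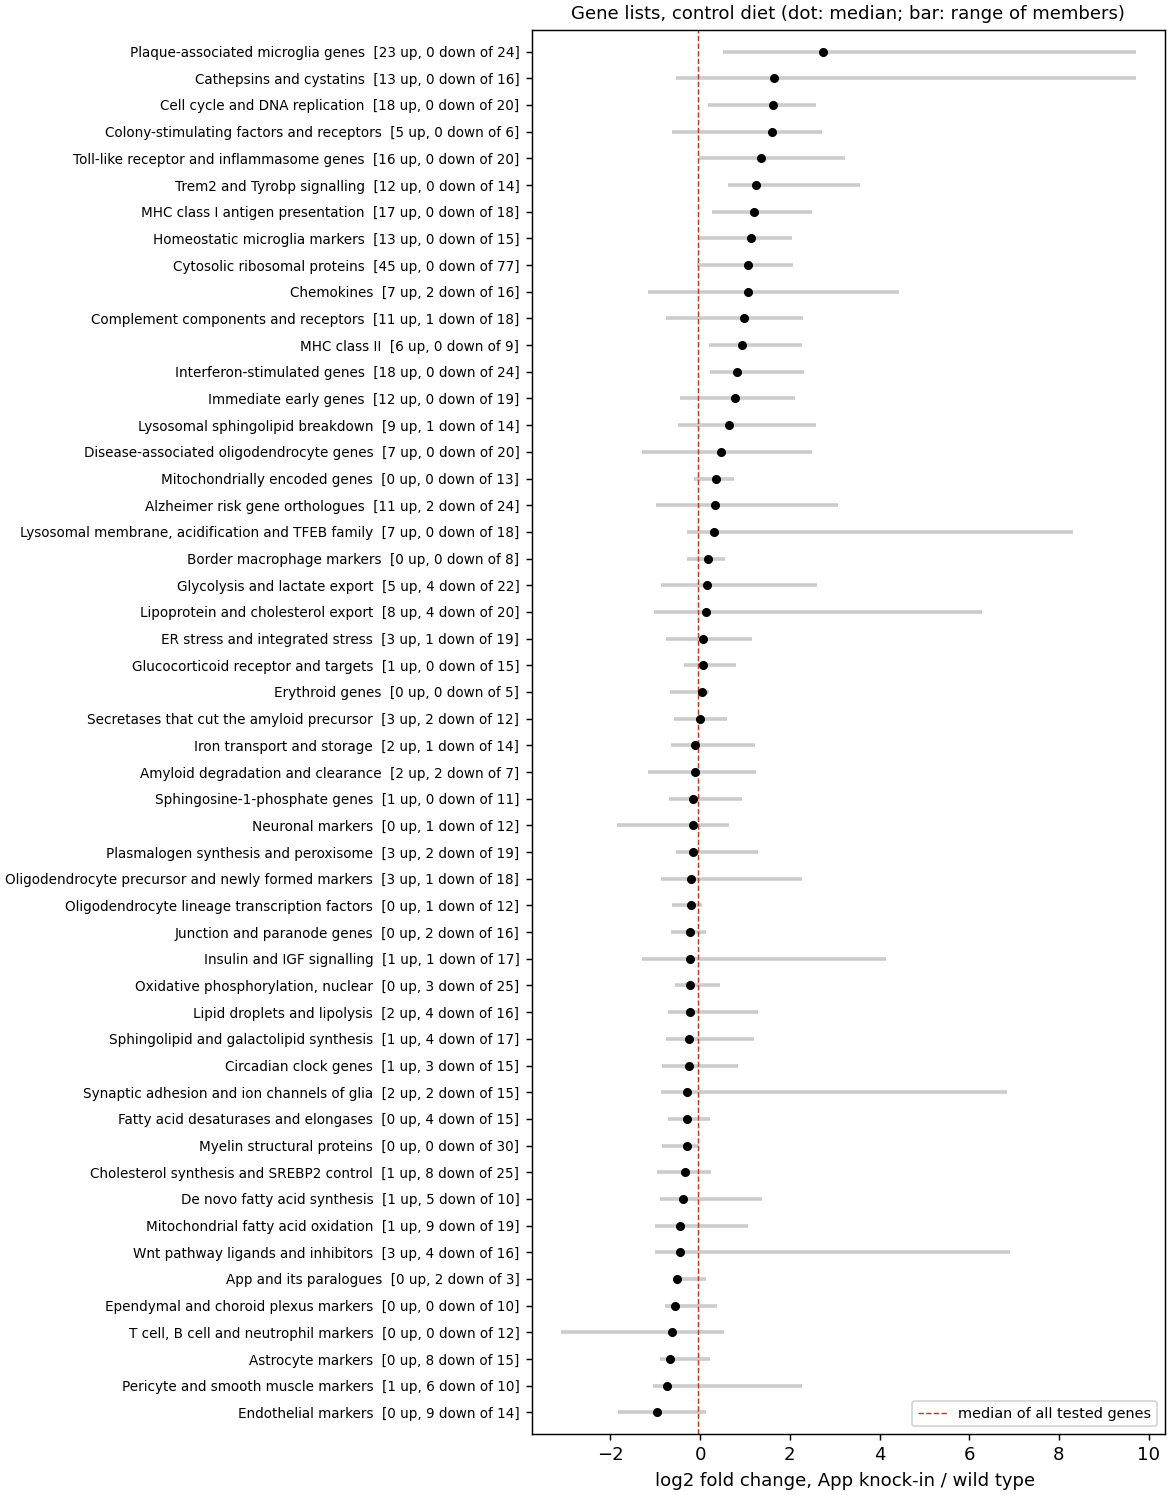
Log2 fold change, App knock-in over wild type, for 52 gene lists (dot, median; bar, lowest to highest member; dashed line, median of all tested genes), with the number of members called higher and lower of those tested. Immune, lysosomal, cell cycle and ribosomal lists lie to the right, and endothelial, mural and astrocyte lists lie furthest to the left.

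Cell division genes were higher from low levels: 18 of 20 cell cycle and DNA replication genes rose and none fell (median log2 fold change 1.62). Cdk1, the mitotic kinase, was at 1.33, 1.27, 1.06 and 0.894 CPM in wild type and 4.86, 6.89 and 7.57 CPM in App knock-in, and Tyms, which makes thymidylate, had a log2 fold change of 1.23. The count of higher genes was 15 without App knock-in 537 and 12 with mouse 553 added. With mouse 553 the Cdk1 call was lost (edgeR adjusted p = 0.097).

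Genes that make, cut or clear amyloid-beta moved in both directions. App (chr16:84949685-85173766, ENSMUSG00000022892) was at 2490, 3374, 4279 and 3237 CPM in wild type and 2422, 2232 and 2378 CPM in App knock-in, every App knock-in library being below the lowest wild-type one by a narrow margin. Its log2 fold change was -0.51 ± 0.15 (SE), with an edgeR adjusted p of 0.032, and the exact two-sided permutation test gave p = 0.0571, the smallest value 3 against 4 libraries allow. The call was lost with mouse 553, with the 7 libraries fitted alone, with myelin scaling (-0.19), and without wild type 5, 11 or 12 or any 1 App knock-in library. The knock-in changes the coding sequence, so this level does not check the genotype labels. Aplp1, a paralogue, was lower (log2 fold change -0.53), and that call was lost under the same alternatives. Among 12 secretase genes 3 rose and 2 fell. Adam17, a sheddase with alpha-secretase activity, was at 89.9, 85.8, 99.6 and 82.4 CPM and 145, 128 and 132 CPM, Ncstn, the nicastrin subunit of gamma-secretase, had a log2 fold change of 0.48, and Aph1b, a subunit with a near-identical copy nearby, -0.45. The Ncstn and Aph1b calls were lost with mouse 553, and the Aph1b call also with myelin scaling. Apoe, the main lipid carrier of the brain, was at 3659, 2942, 3477 and 2922 CPM and 8624, 7435 and 7186 CPM (log2 fold change 1.25 ± 0.15 (SE), edgeR adjusted p = 3.8e-05). Its call was lost with mouse 553 added (edgeR adjusted p = 0.091), where Apoe was at 1593 CPM. Clu, another carrier of lipids and amyloid, moved the other way, from 1414, 1388, 2374 and 1323 CPM to 969, 765 and 712 CPM, and lost its call with myelin scaling. Of 24 orthologues of Alzheimer risk genes 11 rose and 2 fell, among them Mef2c (1.88) and Abi3 (1.39).

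None of the 30 myelin genes was called, at adjusted p below 0.05 in edgeR, and all 30 had a negative log2 fold change (median -0.30 against -0.05 over all genes). Mbp, which encodes the protein that compacts the membrane, was at 3707, 4514, 3691 and 4037 CPM in wild type and 3731, 3484 and 3958 CPM in App knock-in. The groups overlapped. Among junction and paranode genes 2 of 16 fell: Cntn1, an axon-glia adhesion protein (-0.64, a call lost without App knock-in 538 or 545), and the junctional protein Jam3 (-0.56). Of 12 lineage transcription factors Sox8 alone was called (-0.37), and its groups overlapped. Dropping 1 library ended the Jam3 call without wild type 11 or any 1 App knock-in library, and the Sox8 call without wild type 4, 5 or 12 or App knock-in 537 or 545. At an unadjusted p below 0.05 in edgeR, 11 of the 30 myelin genes were lower and none higher. limma-voom called 14 myelin genes lower and DESeq2 3. With library totals, and in the fit without wild type 4, 7 were called lower, and with the 7 libraries alone none. Myelin scaling also called none, but it sets the mean level of these same 30 genes equal between libraries, so it cannot test them.

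Oligodendrocyte precursor markers were mixed. Cspg4, the NG2 proteoglycan, was at 12, 9.37, 11.4 and 12.2 CPM in wild type and 66.9, 47.8 and 47.2 CPM in App knock-in (log2 fold change 2.26 ± 0.19 (SE), edgeR adjusted p = 1.8e-06), and pericytes make it too. Of 18 precursor and newly formed markers 3 rose and 1 fell, beside 10.2% higher and 7.22% lower over all tested genes. The summed level of 6 precursor markers was 474 CPM in App knock-in 537 but 219 and 232 CPM in App knock-in 538 and 545, around a wild-type range of 297 to 399 CPM. Cspg5, a proteoglycan of precursors and astrocytes, fell (-0.86). Of 20 genes of disease-associated oligodendrocytes 7 rose and none fell (median log2 fold change 0.46). B2m, also counted with class I antigen presentation, was among those that rose. Serpine2, a protease inhibitor, was at 241, 185, 112 and 174 CPM and 619, 639.5 and 627 CPM, and Cd9, a tetraspanin, at 378, 379, 302 and 381 CPM and 627, 803 and 1004 CPM.

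Some lipid synthesis genes were lower by modest amounts, and others were not called. Of 25 cholesterol synthesis and SREBP2 genes 8 fell and 1 rose (median log2 fold change -0.33). Msmo1, a sterol C4-methyl oxidase, was at 191, 172, 167 and 174 CPM in wild type and 117, 119 and 115 CPM in App knock-in, a tight pair of groups without overlap (log2 fold change -0.59 ± 0.084 (SE), edgeR adjusted p = 2.1e-04). Its call was lost with mouse 553 added, where Msmo1 was at 176 CPM, within the wild-type range. Sqle and Lss, further steps of the pathway, had log2 fold changes of -0.52 and -0.43. For fatty acid synthesis 5 of 10 fell and 1 rose. Acss2, which makes acetyl-CoA from acetate, was at 74.1, 69.2, 79.7 and 74.4 CPM and 53.5, 48.7 and 48.3 CPM, and Srebf1, the lipogenic transcription factor, had a log2 fold change of -0.57, a call lost without App knock-in 538 or 545. The gene that rose was Mlxipl, the carbohydrate-response factor (1.37). Desaturases and elongases had 4 of 15 lower and none higher, Elovl7 with -0.63, a call lost without wild type 5, 11 or 12 or App knock-in 537 or 545. Without App knock-in 545, 5 cholesterol, 1 fatty acid synthesis and 0 desaturase or elongase genes were called lower, and without wild type 11, 5 cholesterol genes were. With mouse 553 added, 3 cholesterol, 2 fatty acid synthesis and 0 desaturase or elongase genes were called lower. With the 7 libraries fitted alone, these counts were 3, 3 and 2. Scaled to the myelin list, none of these genes was called lower, and 2 cholesterol and 4 fatty acid synthesis genes were called higher.

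Fatty acid oxidation in mitochondria had 9 of 19 genes lower and 1 higher (median log2 fold change -0.44). Acaa2, the last thiolase of the cycle, was at 68.5, 71.2, 91.9 and 63.4 CPM in wild type and 29.7, 44.2 and 37.1 CPM in App knock-in. Cpt1c, counted in the list as a member of the carnitine acyltransferase family, had a log2 fold change of -0.57. Whether Cpt1c takes part in mitochondrial oxidation in these cells was not tested. Ucp2, an inner membrane carrier, was the gene that rose (1.08). The count of lower genes was 3 to 6 when 1 library was left out, lowest without App knock-in 545. Every lower call of this list was lost with myelin scaling. Sphingolipid and galactolipid synthesis had 4 of 17 lower and 1 higher, with 2 lower without any 1 of wild type 5, 11 or 12 or App knock-in 538 or 545 and 0 with myelin scaling. The ceramide synthases Cers4 and Cers6 went opposite ways, at -0.70 and 1.20, and Sgms1, which makes sphingomyelin, was at -0.49. Of 11 sphingosine-1-phosphate genes 1 rose, Sgpl1, which degrades it (0.92). Among 20 lipoprotein and export genes 8 rose and 4 fell, with 2 lower without App knock-in 545, 1 with myelin scaling, and 3 higher and 2 lower with mouse 553. Ch25h, which makes 25-hydroxycholesterol, was at 7.98, 1.42, 1.26 and 2.71 CPM and 16.4, 21.5 and 24.4 CPM, and Pltp, the phospholipid transfer protein, at 277, 241, 301 and 262 CPM and 87.7, 154 and 155 CPM. Lipid droplet genes had 2 of 16 higher and 4 lower, with Plin2, a droplet coat protein, at 1.29. Leaving out any 1 library gave 1 to 2 higher and 2 to 3 lower (2 lower without wild type 4 or 11 or App knock-in 537 or 545), and myelin scaling gave 0 lower. Abcd2, a peroxisomal transporter of very long chain fatty acids, rose (1.29).

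Of 22 glycolysis and lactate export genes 5 rose and 4 fell, and without App knock-in 545, 3 rose and 1 fell. Hk2, an inducible hexokinase, was at 53.5, 28.5, 43.6 and 28.5 CPM in wild type and 117, 89.4 and 93.3 CPM in App knock-in, and Slc16a3, the lactate exporter MCT4, at 10.9, 9.05, 9.89 and 7.46 CPM and 48.7, 58.2 and 63.8 CPM. Pfkfb3, which raises the activator of phosphofructokinase, rose (2.83-fold, not on the log2 scale), while the phosphofructokinase genes Pfkm and Pfkp fell (-0.87 and -0.75, calls lost with myelin scaling). Nuclear genes of oxidative phosphorylation had 3 of 25 lower, Cyc1 among them (-0.55), and none without wild type 11, App knock-in 537 or App knock-in 545. None of 13 mitochondrially encoded genes was called in edgeR, DESeq2 or limma-voom or had an unadjusted edgeR p below 0.05, and mt-Co1 was at 15179, 12348, 4177 and 12098 CPM and 16512, 12709 and 12900 CPM, with wild type 11 lowest.

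Cytosolic ribosomal protein genes had 45 of 77 higher and none lower (median log2 fold change 1.08), but the libraries of App knock-in did not move together. Their mean log2 CPM was 6.79 in App knock-in 537, inside the wild-type range of 6.50 to 6.87, against 8.02 and 8.18 in App knock-in 538 and 545. Rpl12 showed the same order, at 135, 115, 166 and 117 CPM in wild type and 195, 442 and 472 CPM in App knock-in, while Rpl21 was at 271, 241, 209 and 223 and 478, 607 and 634 CPM. The count was 22 without App knock-in 545 and 73 without App knock-in 537, alone or together with wild type 11. Many of these genes have near-identical pseudogenes, so the split of reads between copies is uncertain. The median exonic length of the 77 genes was 1781 bases. Among 1360 protein-coding genes of 1000 to 2000 exonic bases App knock-in 537 was 0.25 below its group mean (median, log2 CPM), and 538 and 545 were 0.14 and 0.12 above. For 258 genes under 1000 bases these values were 0.55 below and 0.27 and 0.28 above. The part of gene length in the ribosomal result was not tested. Eef1a1, an elongation factor, had a log2 fold change of 0.80.

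**Figure D5:**
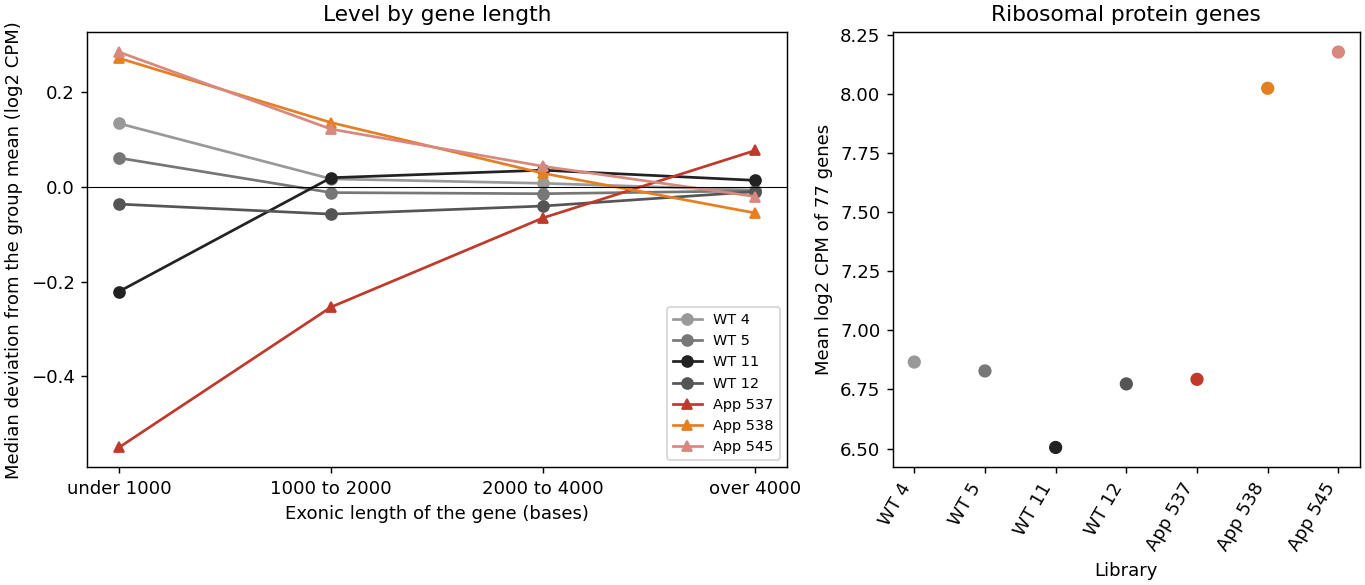
Left, median deviation of protein-coding genes from their own group mean (log2 CPM) by exonic length, 1 line per library; right, mean log2 CPM of 77 ribosomal protein genes per library. App knock-in 537 is 0.55 below its group for genes under 1000 bases and its ribosomal level (6.79) lies among the wild-type libraries.

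The same genotype contrast on a high-fat diet (4 App knock-in and 4 wild-type libraries, with no library in common with the control-diet groups) called 4307 genes (19.3%), 2401 higher (10.8%) and 1906 lower (8.54%). A total of 2704 genes were called on both diets in the same direction, 1875 higher and 829 lower, which is 69.3% of the control-diet calls and 62.8% of the high-fat calls, and none was called in opposite directions. The plaque-associated list had medians of 2.74 and 2.71. Cst7, Itgax and Csf1 had log2 fold changes of 9.27, 6.74 and 2.38 on the high-fat diet. The test of the difference between diets called no gene in edgeR (614 genes, 2.75%, at an unadjusted p below 0.05), none in limma-voom and 6 in DESeq2, so that a gene called on only 1 diet was not shown to differ between diets. Cry1, a repressor of the circadian clock, fell on the control diet (-0.85), and its high-fat log2 fold change was -0.25 (edgeR adjusted p = 0.14).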

How the data were processed

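The authors' deposited table holds estimated counts per gene, written as whole numbers. The submitters' processing notes name fastp 0.23.2, HISAT2 2.2.1, StringTie 2.2.1, bedtools 2.25.0 and the mm10 build; the annotation and strand setting are not given in the sources used here. Of 53801 genes, 22322 passed edgeR's filterByExpr. edgeR 4.0.16 (TMM scaling, robust quasi-likelihood fit, R 4.3.3) fitted 4 groups over 15 libraries, leaving 11 degrees of freedom and using no covariates; the contrasts were genotype on each diet and their difference. Exonic lengths and coordinates came from GENCODE M21, which held 99.8% of the IDs, and promoters from RefSeq. DESeq2 1.42.0, limma 3.58.1 and the other alternatives were refitted as described in the closing section. Named genes were App, the 12 highest and 12 lowest changes with a mean of at least 1 CPM, the 12 most abundant calls in each direction, and up to 5 members per list by adjusted p. Of the 238 genes this gives, 124 are named; which ones was decided after their values and outlying libraries had been seen, and the order of each criterion was not always kept. Map2k7, a symbol with more than 1 gene ID, is among those not reported here. The 5 promoter motifs were chosen after the data were seen, and the interferon letters were shortened by 1 base after the longer form had been searched, which can only raise their shares. Markers used for cell types were fixed with the lists. The members and lists were chosen with earlier results of these data known.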

Additional observations from a re-analysis of the deposited data

Results flagged for a closer look

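In the 4 wild-type libraries, 21 of the 124 genes named here and 5 of 52 list scores (mean log2 CPM of the members) had a single library far from the other 3 (Dixon's criterion at 95%, which chance meets in about 1 in 20 groups). The genes named are a selection made after their values and these outliers had been seen. Over all 238 genes that the naming rule picks, named here or not, 46 had such a library, wild type 4 for 29 and wild type 11 for 16. Among the genes and scores given here wild type 4 was that library 15 times. It was high for microglial and myeloid genes: Csf1r 1427, C1qa 661, Tyrobp 115, Itgb2 82.6, Tlr2 53.6, Lpl 10.1 and Cxcl10 5.55 CPM, with a homeostatic microglia score of 8.44 against 7.67 to 7.79 and a complement score of 5.53. It was also high for S100a9, a neutrophil gene (121 CPM against 4.82 to 14.1), Lrg1 (17.5 CPM), Vwf (127 CPM), Fgfr3 (425 CPM), Pfkfb3 (109 CPM) and Abcd2 (50.1 CPM). Vwf and Lrg1 were called lower in App knock-in, and both calls were lost in several alternatives (Vwf in 8, Lrg1 in 9, including without wild type 4).

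Wild type 11 was apart 11 times, high for Enpp2 (23922 CPM), Eef1a1 (3431 CPM), Clu (2374 CPM), Ncstn (127 CPM), Cyc1 (112 CPM), Nrtn (5.75 CPM) and Yjefn3 (4.81 CPM) and low for Cd9 (302 CPM). Its scores were high for amyloid degradation and clearance (6.70) and de novo fatty acid synthesis (6.47) and low for synaptic adhesion and ion channels of glia (5.41). This is the library with 1.22% mitochondrial counts.

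The library of mouse 553, outside the comparison, held Cst7 at 1167, Gpnmb at 683 and Itgax at 348 CPM, above every wild-type library. These genes were picked, and others differed. Tyrobp at 516 CPM was also above, and Trem2 at 87 CPM lay within the wild-type range. Csf1r at 463, C1qa at 134, Fcrls at 130 and Apoe at 1593 CPM were below every wild-type library.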

How the results depend on the processing

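Over the scalings, tools and left-out libraries run here, 22 to 24 of 24 plaque-associated genes, 10 to 14 of 14 Trem2 and Tyrobp genes and 10 to 13 of 16 cathepsins and cystatins were called higher. Other counts of higher genes moved more. They were 20 to 74 of 77 for ribosomal proteins, 4 to 14 of 19 for immediate early genes, 8 to 18 of 18 for class I antigen presentation and 12 to 20 of 20 for the cell cycle. Lower calls also depended on the scaling and on single libraries. With mouse 553 the calls were 1826 (1416 higher, 410 lower), the App log2 fold change was -0.51 and lost its call (adjusted p = 0.0535), and Aph1b (0.21) changed sign. With the 7 libraries fitted alone 2528 genes were called (695 lower) and App was at -0.48. Library totals gave 2542 lower. Myelin scaling gave 79 lower, App at -0.19, and the opposite sign for Mbp (0.20), which is itself among the genes used for that scaling. limma-voom called 7540 genes (3796 higher, 3744 lower), and asking also for a 2-fold change left 1486 (1240 and 246). DESeq2 called 6 genes for the difference between diets (5 and 1). Leaving out 1 library gave 2456 to 4189 calls, 589 to 1535 of them lower, and App at -0.61 to -0.34, with its call lost in 6 of 7 fits. S100a9 ran from -2.21 to 0.33 and Mrc1 from -0.12 to 0.45. Without wild type 11 and App knock-in 537 together, an alternative added after seeing the data, App was at -0.40, Mrc1 at -0.23 and mt-Co1 at -0.044. The causes were not tested. Of 117 named genes called, 36 lost the call with myelin scaling, and 29 of 115 with mouse 553. Depth limits folds against wild-type levels near 0, as for Atp6v0d2 and Kcnk9, with at most 30 and 22 reads in a wild-type library. No paired analysis was possible because no mouse number occurs in more than 1 group.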

Other observations

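Immediate early genes, which respond within minutes to stimuli including dissociation of tissue, had 12 of 19 members higher in App knock-in and none lower, and wild type 4 had the highest score of its group. Egr2 was at 10.4, 7, 7.12 and 7.73 CPM in wild type and 35.9, 33 and 36.8 CPM in App knock-in, and Egr1, Atf3 and Dusp1 had log2 fold changes of 1.63, 1.44 and 0.80. The count was 9 without App knock-in 537 and 4 with mouse 553.

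Circadian clock genes had 3 of 15 lower and 1 higher, with 1 lower without App knock-in 538 or 545 and 7 without App knock-in 537, Bhlhe41, a repressor of the clock, with 0.84. Stress genes of the endoplasmic reticulum had 3 of 19 higher and 1 lower, beside 10.2% higher and 7.22% lower over all tested genes. Among them were Sdf2l1, a chaperone cofactor, with 1.16, and Phgdh, the first enzyme of serine synthesis, with -0.76, a call lost without App knock-in 537. Among iron genes Ftl1, the ferritin light chain, was at 618, 467, 473 and 424 CPM in wild type and 789, 1288 and 1367 CPM in App knock-in, and Tfrc, the transferrin receptor, fell (-0.44). Wnt genes had 3 of 16 higher and 4 lower, with 1 lower without App knock-in 545, 7 without App knock-in 537 and 0 with myelin scaling. Dkk3 was at 36, 32.1, 32.5 and 31.6 CPM and 21.7, 13.5 and 14.1 CPM, opposite to Dkk2. Ckb, the brain creatine kinase, was among the most abundant genes that fell (-0.61).

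A few extreme fold changes rested on scattered libraries. Igkv6-13, an immunoglobulin segment, was at 0, 0, 0.015 and 0.0486 CPM in wild type and 0.0595, 2 and 9.64 CPM in App knock-in, and its high-fat log2 fold change was -7.52. Ighv4-1 was at 0.0134, 9.29, 2.83 and 0.0194 CPM in wild type and 0, 0.0247 and 0.0603 CPM in App knock-in. Hist2h2aa1, a histone gene with a near-identical copy, was at 16.5, 1.49, 1.78 and 11.9 CPM and 0.387, 0.0247 and 0.0754 CPM. Cd5, a lymphocyte receptor, was at 0.0358, 0, 0.0601 and 0.0777 CPM and 3.52, 3.66 and 3.21 CPM, a separation seen in all 3 App knock-in libraries.

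Among the steepest falls were low-level genes whose calls did not hold when some libraries were left out. Tie1, an endothelial receptor, was at 12.6, 7.84, 24.2 and 15 CPM in wild type and 3.46, 4.42 and 8.13 CPM in App knock-in, and its call was lost without App knock-in 537 or 538. Slc38a5, an amino acid transporter, had a log2 fold change of -1.67, a call lost without wild type 4 or App knock-in 537 or 538. Asb4 (-1.62) and Bok (-1.55), an apoptosis regulator of the BCL-2 family, lost theirs without wild type 11 or 12, among others. Yjefn3 (-1.58) and Nrtn (-1.52), the growth factor neurturin, lost theirs without wild type 11, where both were highest, or App knock-in 537 or 538. Tbx1 (-1.44), a T-box transcription factor, kept its call only without wild type 4 among the fits that left out 1 control-diet library.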
